A study of Mus musculus with 8 samples.

Results

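Cells that carried RNA of both Atoh1 and Gfap were examined in 2 single-cell libraries of mouse medulloblastoma. Atoh1 is the transcription factor that defines cerebellar granule neuron precursors, and Gfap encodes the intermediate filament protein of astrocytes. A cell was a member when it had 500 or more detected genes, 10% or less of its UMIs (unique molecular identifiers, each 1 captured RNA molecule) from mitochondrial genes, 1 or more Atoh1 UMIs, 2 or more Gfap UMIs, and at most 4 detected genes of 12 that mark astrocytes (Aqp4, Gja1, Slc1a2, Aldoc, Ntsr2, Mlc1, S100b, Fgfr3, Gjb6, Acsbg1, Slc4a4 and Clu). This rule found 407 of 9094 filtered cells in the primary library and 195 of 7839 in the relapsed library. They are called Atoh1 Gfap cells. The members were chosen by their UMI counts of Atoh1, Gfap and the 12 genes, so values of these 14 genes are given as a description and support nothing.

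Both libraries came from Patched 1 deficient mice, which develop medulloblastoma with an active Hedgehog pathway. The primary library is labelled as a primary tumour and the relapsed library as a relapsed tumour from 3 weeks. Tumours were dissociated with papain, and the labels name flow cytometry sorting of primary and recurrent tumour cells. The labels do not state the number of mice behind each library, the promoter or cell type in which Ptch1 was lost, or any treatment before relapse. The description field of the relapsed library names a primary tumour; its title and its source label were followed. There was 1 library per group, so no difference between them has a replicate check, cells were not treated as replicates, and no p-value was computed; intervals are exact 95% intervals that cover counting error only. The primary matrix held 56332247 UMIs in 9164 barcodes and the relapsed matrix 69403567 in 7852, with medians of 5404 and 7230 UMIs per barcode. The libraries shared 93 barcodes, including 2 of the Atoh1 Gfap cells of each library, and no shared barcode was a member in both.

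Granule neuron precursors divide in the external layer of the cerebellum in response to Sonic hedgehog, which binds the receptor Ptch1 and so releases Smo to activate the Gli transcription factors. Loss of Ptch1 keeps this pathway on, and tumours of this kind express Atoh1. Astrocytes belong to another lineage of the brain, and the study's title states that tumour cells generate astrocytes in relapse, so a cell with RNA of both genes bears on whether the programmes meet in 1 cell. A droplet can also hold both RNAs when free RNA is captured with the cell or when it holds more than 1 cell.

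Gfap in these cells was mostly at the minimum of the rule. Of the 407 primary cells, 207 had 2 Gfap UMIs, 88 had 3, 45 had 4 and 67 had 5 or more, with a highest value of 17. Of the 195 relapsed cells, 124 had 2, 45 had 3, 13 had 4 and 13 had 5 or more, with a highest value of 24. Just outside the rule lay 622 primary and 639 relapsed Atoh1 cells with 1 Gfap UMI, and 216 and 83 cells with 2 or more Gfap UMIs and no Atoh1 UMI. Atoh1 itself was at 1 UMI in 177 of the 407 and 57 of the 195 members. None of the members had 4 of the 12 astrocyte genes: 158 primary members had none, 196 had 1, 47 had 2 and 6 had 3, and the relapsed members had 49, 100, 36 and 10. Another 12 primary and 13 relapsed cells met the Atoh1 and Gfap limits with 5 or more of the 12 genes and were left out by the rule.

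Atoh1 Gfap cells made up 10.1% (exact Clopper-Pearson interval 9.20 to 11.1) of the 4024 primary Atoh1 cells with at most 4 astrocyte genes, and 3.82% (3.31 to 4.39) of the 5101 in the relapsed library. The relapsed library was sequenced more deeply, and its share was the lower. With every cell thinned to 3000 UMIs, 89 of 2414 primary Atoh1 cells (3.69%, 2.97 to 4.52) and 25 of 3255 relapsed ones (0.768%, 0.498 to 1.13) met the rule; 1176 primary cells were too shallow to thin and no relapsed cell was. The Gfap level of primary Atoh1 cells fell from 2 Atoh1 UMIs upward, and that of relapsed ones showed no steady order. In primary cells with 1, 2, 3, 4 and 5 or more Atoh1 UMIs there were 0.673, 0.690, 0.671, 0.570 and 0.520 Gfap UMIs per 10000 UMIs. The intervals at 1 (0.628 to 0.720) and at 5 or more (0.441 to 0.608) did not overlap. Relapsed cells had 0.262, 0.235, 0.193, 0.258 and 0.232. Cells without an Atoh1 UMI and with at most 4 astrocyte genes had 0.527 and 0.279, near the low end of the primary values and just above the relapsed ones.

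The cells held a large part of the Gfap RNA of the primary library and a smaller part in the relapsed one. Of 3884 primary Gfap UMIs they carried 1302 (33.5%), and of 4363 relapsed ones 532 (12.2%). Cells with 5 or more of the 12 astrocyte genes carried 584 of the primary Gfap UMIs in 60 cells, and 2675 (61.3%) of the relapsed ones in 69 cells. Astrocyte reference cells, those with 6 or more of the 12 genes, had 11.4 Gfap UMIs per 10000 UMIs in 45 primary cells and 23.0 in 57 relapsed cells. Atoh1 Gfap cells had 3.99 and 1.97, a level fixed from below by the rule.

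Free Gfap RNA was gauged in cells that should lack the gene. Microglia reference cells, with no Atoh1 UMI and 4 or more of 12 microglia markers, numbered 220 in the primary library. They had 48 Gfap UMIs, or 0.293 per 10000 UMIs (0.216 to 0.388); 31 of them (14.1%, 9.78 to 19.4) had a Gfap UMI and 7 (3.18%, 1.29 to 6.45) had 2 or more, at a median of 6038 UMIs per cell against 6592 in Atoh1 cells. If every Gfap UMI of the Atoh1 cells were a Poisson draw at that rate, 92.5 cells would have 2 or more; 407 had, 4.40 times as many. For 3 or more the expected number was 9.20 and the observed 200, and for 5 or more 0.0709 and 67. The primary members were thus more numerous than draws at the microglial rate would give, and by the widest margin at high Gfap counts. That margin rests on a common rate for all cells. The microglia may not follow such a rate, as 1 of the 220 had 9 Gfap UMIs. The result depended on the rate taken as free RNA: at the mean rate of all filtered cells, 0.692 per 10000 UMIs, which includes the members and astrocytes, 399 cells were expected at 2 or more and 3.04 at 5 or more.

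The same comparison in relapsed cells rested on few reference cells. Of 28 microglia reference cells, 27 had no Gfap UMI and 1 had 11. With that cell the rate was 0.335 per 10000 UMIs and 248 cells with 2 or more Gfap UMIs were expected against 195 observed, a ratio of 0.786; without it the rate was 0 and no ratio can be given. From the share of reference cells of 6 other cell types together that had no Gfap UMI (79 of 92), 53.1 cells were expected, a ratio of 3.67, whereas from all their UMIs the ratio was 0.354. The share of relapsed Atoh1 cells with 1 or more Gfap UMIs, 16.3%, was close to the 14.1% (7.74 to 23.0) in those 92 cells, and the share with 2 or more, 3.82%, was below their 5.43% (1.79 to 12.2); median UMIs were 8084 and 9800.5. Only 13 of the 92 cells had a Gfap UMI, and 1 of them had 19. With intervals this wide, these shares cannot decide whether the relapsed cells differ from background. The numbers expected at a common rate were not settled either, with ratios from 0.143 to 61.2 over the rates tried. At 3 or more Gfap UMIs, 71 relapsed cells were observed against 44.2 expected at the microglial rate. At 5 or more Gfap UMIs, 13 relapsed cells were observed against 2.93 expected at the microglial rate and 12.8 at the rate of the 92 cells.

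**Figure D1:**
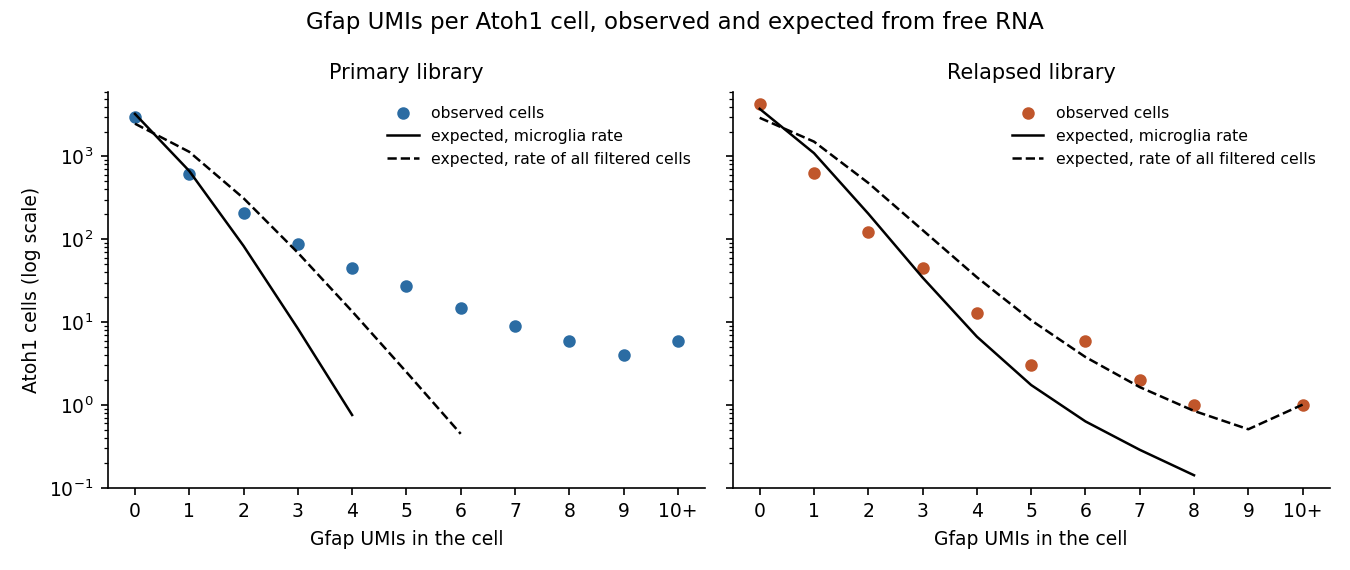
Number of Atoh1 cells (log scale) by Gfap UMIs in the cell in each library; points are observed cells, the solid line the number expected at the Gfap rate of microglia reference cells, the dashed line that at the rate of all filtered cells, and 10+ pools 10 or more. Primary cells with 3 or more Gfap UMIs lie above the microglia line (200 observed, 9.20 expected), whereas relapsed cells with 2 UMIs lie below the line, which rests on 1 microglial cell. Expected values below 0.1 are not drawn.

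The members carried the markers of the tumour cell class, with median numbers of astrocyte markers near those of their controls. Of 17 granule precursor and tumour markers other than Atoh1, 4 or more were detected in 404 of 407 primary and 195 of 195 relapsed members, with medians of 9 and 10 per cell. Microglia reference cells had a median of 2 of these in both libraries, and 77 of 220 primary ones had 4 or more. Of 30 astrocyte markers that the rule did not use, members had a median of 5 in both libraries, matched control cells 4 and 5, and astrocyte reference cells 23 and 26. Microglia reference cells had medians of 5 and 6 of the 30. The 12 genes both limited the members and chose the astrocyte reference, which helps to fix the distance between these groups. The water channel Aqp4, a defining astrocyte gene, had 2 UMIs in all 407 primary members and 2 in all 195 relapsed ones, which the rule's limit on the 12 genes helps to fix. In the primary astrocyte reference it stood at 1249 CPM (a gene's UMIs after scaling every group to the same total of 1000000 UMIs).

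For the comparison of levels, each member was set beside up to 5 Atoh1 cells of its own library with no Gfap UMI, at most 4 of the 12 astrocyte genes and a UMI total within 20%. This gave 2031 primary and 952 relapsed control cells, with median UMIs of 7071 in members and 7077 in controls (primary) and 10380 and 10320.5 (relapsed). Median detected genes were 2507 and 2523 in the primary and 3131 and 3071 in the relapsed library. UMIs were summed over each group and are given as CPM, with log2 ratios of members over controls.

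Members and controls were close to each other across the transcriptome. Over 2921 primary genes at a mean of 50 CPM or more, the median log2 ratio was -0.02 with an SD across genes of 0.22, and over 2874 relapsed genes it was 0.01 with an SD of 0.28. In the primary library 2 genes were 2-fold or more higher (0.0685% of genes) and 10 were 2-fold or more lower (0.342%). Among relapsed genes 0 were higher (0%) and 4 lower (0.139%), and no gene passed 2-fold in the same direction in both. The 4 relapsed genes were Gh, Prl, Meg3 and Mgp, named after their values were seen, with much of their UMIs in few control cells. Without cells of 100 or more Gh or Prl UMIs, 1 relapsed gene was 2-fold or more lower. At 1.5-fold, 10 primary genes were higher (0.342%) and 54 lower (1.85%), and 8 relapsed genes were higher (0.278%) and 37 lower (1.29%). Of these, 19 of 2568 genes measured in both libraries were lower in both (0.74%) and 0 were higher in both. Of those 19 genes, 14 belonged to the G2/M list and the others were Knstrn, Prc1, Fam64a, Ccnb1 and Tuba1c, named after their values were seen; Ccnb1 encodes cyclin B1, the partner of the mitotic kinase Cdk1.

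Genes of G2 and mitosis were lower in Atoh1 Gfap cells of both libraries. Of 50 genes on the list, 34 were at 50 CPM or more, and 33 of the 34 were below their controls in each library, with median log2 ratios of -0.66 (primary) and -0.54 (relapsed) against -0.02 and 0.01 over all genes. Of the 34, 22 primary and 16 relapsed genes were 1.5-fold or more lower, beside 1.85% and 1.29% of all genes. The summed list stood at 6422 CPM in primary members and 9655 in controls (log2 ratio -0.59, counting interval -0.61 to -0.57), and at 8529 and 11984 in the relapsed library (-0.49, -0.51 to -0.47). Single cells varied far more than these intervals. A primary member had a median of 2960 G2/M CPM (quartiles 1912 and 6353) and a control 4678 (2193 and 12708); relapsed members had 5486 (2264 and 10434) and controls 9833 (3524 and 16167). Cells at 10000 CPM or more, a limit set after the values were seen, were 15.2% (11.9 to 19.1) of primary members and 32.1% (30.1 to 34.2) of controls, and 28.2% (22.0 to 35.1) and 49.3% (46.0 to 52.5) in the relapsed library.

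Single genes followed the list. Cdc20, the activator of the anaphase-promoting complex, was at 121 CPM in primary members and 240 in controls (log2 ratio -0.99) and at 149 and 275 in the relapsed library (-0.89). Cenpe, a kinetochore motor, had log2 ratios of -0.90 and -0.91, Ube2c, a ubiquitin carrier of the same complex as Cdc20, -0.82 and -0.91, and Cenpa, the centromeric histone, -0.98 and -0.75. The proliferation marker Mki67 was detected in 32.2% (27.7 to 37.0) of primary members and 43.4% (41.2 to 45.6) of controls.

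Genes of G1 and DNA synthesis were not lower as a group. The summed G1/S list had log2 ratios of 0.01 (-0.02 to 0.04) and 0.11 (0.08 to 0.14), with 14 of 24 and 17 of 24 genes above 50 CPM higher in members; the relapsed ratio turned to -0.12 among cells without a Mki67 or Top2a UMI. Ung, which removes uracil from DNA, had log2 ratios of 0.49 and 0.54, from 124 against 87.9 CPM in the primary and 93.9 against 64.6 in the relapsed library. With controls of the same chromosome 6 class (defined with the chromosome results), relapsed Ung stood at -0.18 (-0.62 to 0.24) in the lower class. In the higher class it stood at 0.91 (0.66 to 1.16). The primary classes had 0.52 and 0.61. Tyms, which encodes thymidylate synthase, stood at 0.06 and 0.51.

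The G2/M level was lower in cells with more Gfap UMIs. In the primary library it was 9655 CPM in matched cells with 0 Gfap UMIs, 8606 with 1, 7339 with 2, 6021 with 3 and 5190 with 4 or more. The relapsed values were 11984, 8975, 8963, 8096 and 7447. Median UMIs were even across the primary classes (6884 to 7382.5), but relapsed cells with 1 Gfap UMI were shallower (8868) than the matched cells with none (10320.5). All relapsed Atoh1 cells with no Gfap UMI, shallower still at 7869, had 10587 CPM. Cells with 1 Gfap UMI, which the rule left out, thus lay below cells with none in both libraries.

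**Figure D2:**
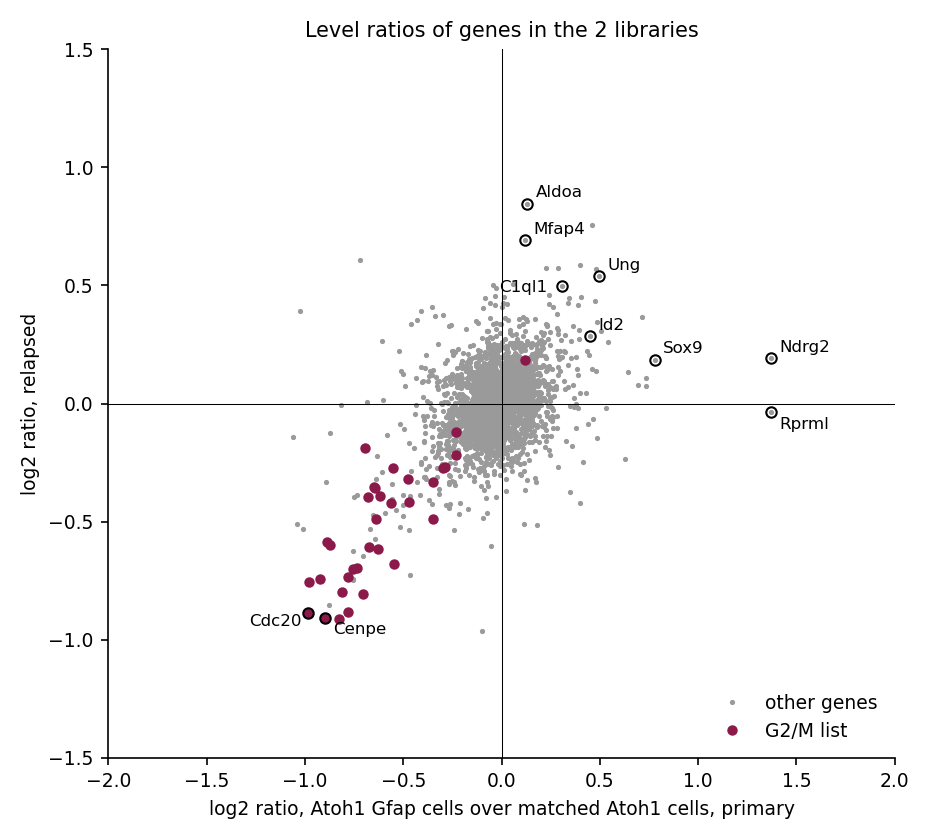
Each of 2568 genes at a mean of 50 CPM or more in both libraries is a point, with its log2 ratio (Atoh1 Gfap cells over UMI-matched Atoh1 cells without Gfap) in the primary library on the x axis and in the relapsed library on the y axis; the 33 G2/M genes measured in both are dark. All but 1 of the G2/M genes lie in the lower left, with Cdc20 at -0.99 and -0.89, and Ndrg2 and Rprml lie far right at primary ratios of 1.37 and near 0 in the relapsed library.

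Genes of glia and neural progenitors did not move together in primary members. The summed neural stem and progenitor list was higher in the primary library only, with log2 ratios of 0.26 (primary) and -0.0036 (relapsed, -0.093 to 0.085). Of its 2 genes at 50 CPM or more, 1 was higher and 1 lower in each library. Msi1, an RNA-binding protein of neural progenitors, stood at -0.29 (-0.53 to -0.066) in the primary library, and Bcas1, a gene of the oligodendrocyte lineage, at -0.44 (-0.66 to -0.23). The summed oligodendrocyte precursor list, which holds Bcas1, was higher, at 0.20 (0.14 to 0.26) in the primary and 0.31 (0.26 to 0.37) in the relapsed library. Its member C1ql1 alone rose by at least as much as the whole list. C1ql1 was at 617 against 499 CPM, beside 850 against 741 for the list, in the primary library. The relapsed values were 886 against 628, beside 1285 against 1033. Of the list's genes at 50 CPM or more, 1 of 2 primary and 3 of 4 relapsed ones were higher. Olig2, also on the list, stood at -0.27 and -0.39. The Bergmann glia list was higher too, at 0.55 (0.44 to 0.66) and 0.25 (0.13 to 0.38). The oligodendrocyte list stood at -0.48 (-0.67 to -0.28) and -0.15 (-0.47 to 0.16). Sox2, a stem cell factor, was at 5.82 against 11.3 CPM in the primary library (-0.95, -1.72 to -0.27), and Fabp7, of radial glia, stood at 0.03. Other genes were higher. Sox9, a transcription factor of neural stem cells and astrocytes, was at 157 CPM in members and 91.4 in controls (log2 ratio 0.78, interval 0.63 to 0.92), and was detected in 63.4% (58.5 to 68.1) of members and 43.4% (41.3 to 45.6) of controls. Relapsed Sox9 was at 118 and 104 (0.19, and -0.31 among members with 3 or more Gfap UMIs) and was detected in 63.1% of members and 60.6% of controls, shares near that of the primary members in deeper cells. Ndrg2, a gene highly expressed in astrocytes, was at 130 against 50.2 CPM in the primary library (1.37) and at 63.2 against 55.3 in the relapsed one (0.19). Rprml, a member of the reprimo family, was at 143 against 55.1 (1.37) and at 223 against 229 (-0.04). Ndrg2 and Rprml were the only genes 2-fold or more higher in the primary library and are named after their values were seen. Slc1a3, the glial glutamate transporter GLAST, had log2 ratios of 0.54 and 0.26.

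The summed BMP and Id list and the summed Notch list were higher in primary members than in controls, with much of each level held by 1 gene. The BMP and Id list was at 620 against 468 CPM, and Id2 held 311 of it in members. The Notch list was at 598 against 522, and Hey1 held 314 of it in members. The BMP ligands, receptors and Smads were not summed apart from the Id genes. Id1 was at 57.9 CPM in primary members and 29.3 in controls (0.98) and at 21.1 and 20.9 in the relapsed library (0.02). With controls of the same chromosome 6 class, relapsed Id1 stood at 0.64 (0.034 to 1.24) in the lower class. In the higher class it stood at -0.77 (-1.47 to -0.16). These rested on 33 and 24 UMIs in members. Id3 was at 28.2 and 10.1 in the primary library (1.48). In the relapsed library it was at 4.44 and 7.99 (-0.83) from 12 UMIs in members. That ratio turned to 0.27 without the tenth of members with most UMIs. Hes1, a Notch target, had log2 ratios of 0.77 and 0.45 from 78 and 54 UMIs in members, the relapsed one turning negative with 1 nearest control and to -0.23 among cells without a Mki67 or Top2a UMI. Id2, at 311 CPM in primary members, had ratios of 0.45 and 0.29, and the Notch target Hey1, at 314 CPM, 0.38 and 0.20. The summed BMP and Id list stood at log2 ratios of 0.41 (0.33 to 0.48) and 0.14 (0.07 to 0.21), and only 1 of its 23 genes, Id2, was at 50 CPM or more. The summed Notch list stood at 0.20 (0.12 to 0.27) and 0.11 (0.016 to 0.20), the latter turning to -0.18 among cells without a Mki67 or Top2a UMI; 2 of its 20 genes were at 50 CPM or more.

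Astrocyte genes differed from one another in size and level. The summed 30 markers not used by the rule had log2 ratios of 0.25 and 0.15. At 50 CPM or more lay 6 of them in the primary library, all above their controls with a median of 0.21, and 5 in the relapsed, 3 of them above with a median of 0.19. Cst3, which encodes cystatin C, stood at 0.31 and 0.20 and Gpm6b, a membrane protein of neurons and glia, at 0.11 and -0.03. Aldh1l1, a general astrocyte marker, had 0 UMIs in primary members and 1 in relapsed ones. Apoe was at 330 against 309 CPM in the primary library, with ratios from -0.46 to 0.68 over the alternatives, and its relapsed ratio of 1.16 rested on 149 UMIs in members and turned to -0.43 among cells without a Mki67 or Top2a UMI. The rule's own 12 genes, whose number in a cell the rule limits, had summed log2 ratios of 0.36 and 0.64. Of these, Slc1a2 was at 112 against 86.7 in the primary and 108 against 74.1 in the relapsed library, and S100b at 22.7 against 14.4 and 44.7 against 20.1; the other 10 were below 4 CPM in members. Vim, the intermediate filament partner of Gfap in astrocytes, stood at 0.25 and -0.07, and Nes, that of neural progenitors, at 0.26 and 0.20, so the partners of Gfap did not differ by 1.5-fold in either library. Of 12 measured intermediate filament genes, 4 were at 50 CPM or more and 3 of the 4 were lower in each library, including the nuclear lamin Lmnb1 at -0.43 and -0.33.

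**Figure D3:**
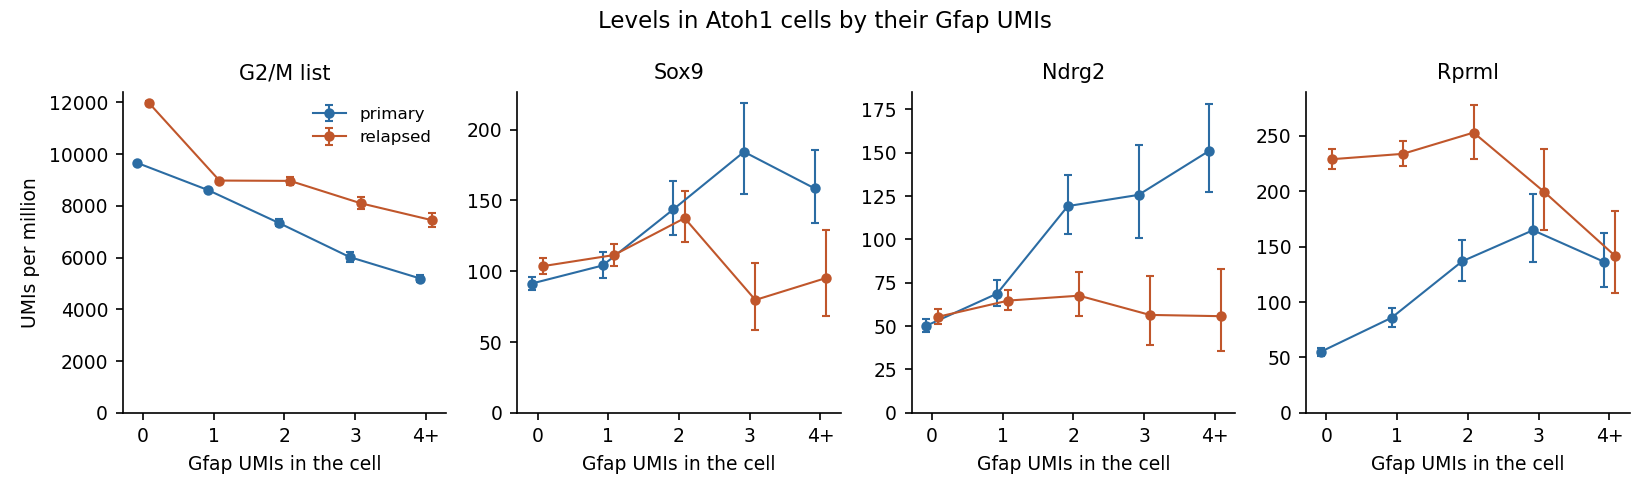
Summed levels in CPM (y axis, from 0) of the G2/M list, Sox9, Ndrg2 and Rprml in Atoh1 cells with 0 (matched to the members), 1, 2, 3 and 4 or more Gfap UMIs (x axis); points are sums over cells and bars exact Poisson 95% intervals for counting error. The G2/M level is highest at 0 and lowest at 4 or more Gfap UMIs in both libraries, and Ndrg2 goes from 50.2 to 151 in the primary library, whereas it lies between 55.3 and 67.6 in the relapsed one.

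The summed levels of the Hedgehog list and of the granule precursor and tumour list differed little between members and controls. The Hedgehog list had summed log2 ratios of 0.05 and 0.04, with 4 of 7 and 3 of 8 genes at 50 CPM or more higher and medians of 0.11 and -0.16. Ptch1, the receptor, stood at 0.16 and -0.12, the signal transducer Smo at -0.13 and -0.21, the activator Gli1 at -0.09 and -0.13, and the target Mycn at 0.12 and 0.06. Sfrp1, a secreted Wnt antagonist that Hedgehog induces, stood at 0.36 and 0.27. The granule precursor and tumour list stood at 4659 against 4567 CPM in the primary library and 5531 against 5126 in the relapsed one. Of its genes at 50 CPM or more, 6 of 11 primary and 8 of 12 relapsed ones were higher. Its member Mfap4 was at 171 against 106 in the relapsed library (0.69, 0.54 to 0.85) and at 128 against 118 in the primary library (0.12). Atoh1 itself was at 267 against 283 and 262 against 280.

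Genes of differentiating granule neurons lay below their controls in the primary library and above them in the relapsed one, while the list of mature granule neurons stood at 0.065 and 0.049, with counting intervals that hold 0. The summed list of differentiating granule neurons was at 3483 against 4075 CPM in the primary library (-0.23) and at 4865 against 4245 in the relapsed one (0.20). Of its 11 primary genes at 50 CPM or more, 3 were higher, and of 10 relapsed genes 9 were, beside 45.8% and 54.0% of all genes at that level. With controls of the same chromosome 6 class (the classes are defined with the chromosome results), the relapsed list stood at -0.025 (-0.079 to 0.029) in the lower class and 0.22 in the higher. Tubb2b, a neuronal tubulin, was at -0.37 and 0.14, Neurod1, a factor of differentiating granule cells, at -0.20 and 0.15 (the latter from -0.080 to 0.36 over the alternatives), and Dcx, of migrating neurons, at 0.32 and 0.29. No test of the difference between libraries was possible. C1ql1, a synaptic organiser on the oligodendrocyte precursor list, was higher in both, from 617 against 499 (0.31) and 886 against 628 (0.50). All 36 ribosomal protein genes were higher in primary members and 35 of 36 in relapsed ones, with medians of 0.09 and 0.09. Of 10 glycolysis and hypoxia genes at 50 CPM or more, 8 were higher in each library, but the summed list differed only by 0.028 and 0.091. Ldha, lactate dehydrogenase, stood at 0.28 and 0.38, the aldolase gene Aldoa at 0.13 and 0.85, and the hexokinase gene Hk2 at 0.18 and -0.52.

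**Figure D4:**
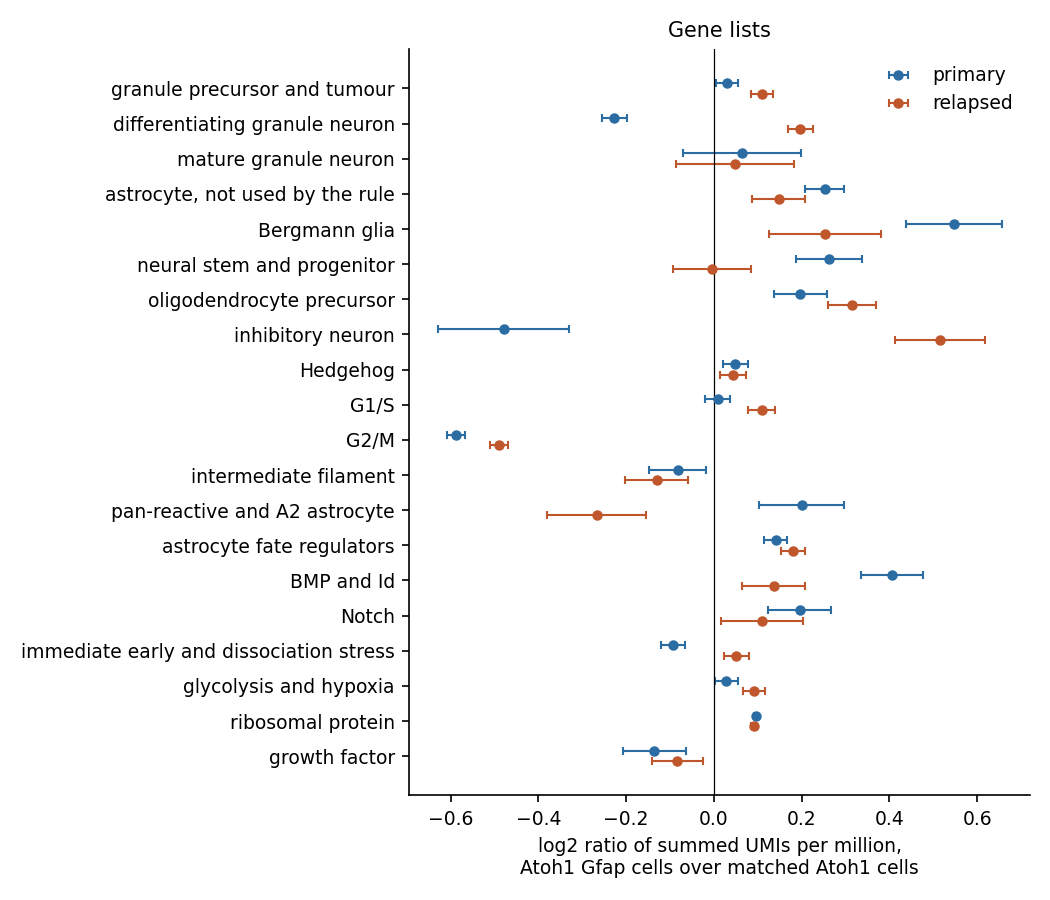
Log2 ratio of summed CPM (x axis), Atoh1 Gfap cells over matched Atoh1 cells without Gfap, for the 20 gene lists at 100 CPM or more (y axis) in the primary and the relapsed library; bars are exact intervals for counting error only. The G2/M list lies lowest in both libraries (-0.59 and -0.49), and the differentiating granule neuron and inhibitory neuron lists lie on opposite sides of 0 in the 2 libraries. Of the 8 inhibitory neuron genes, only 1 (primary) and 2 (relapsed) were at 50 CPM or more.

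Primary members were also poor in genes detected in a subset of the Atoh1 cells. Ren1, the renin gene, was at 85.8 CPM in members and 344 in controls and was detected in 10.1% (7.33 to 13.4) of members and 26.1% (24.2 to 28.1) of controls. Mroh2a was at 162 and 551 (-1.76) and was detected in 38.3% and 62.2%. Relapsed Ren1 was rare, with 8 UMIs in members and 33 in controls, and Mroh2a stood at 36.6 against 34.3 (0.09). Sstr2, the somatostatin receptor, was at -1.06 and -0.14 and Hpca, which encodes hippocalcin, at -1.04 and -0.51. Lrba (-1.02) and Myod1 (-1.13) were also 2-fold lower in the primary library, and all of these are named after their values were seen. The other 4 of the 10 were the mitotic genes Plk1 (-1.01) and Cdca2 (-1.03), and Hbb-bs and Lyz2, of which 1 control cell held 97.4% and 52.0% of the UMIs of all controls. In the relapsed library 5 control cells held 98.5% of the Gh and 93.2% of the Prl UMIs, and 1 control cell held 67.6% of the Mgp UMIs; Meg3 was found in 34 control cells, 1 of which held 16.1%. Gh and Prl, pituitary hormone genes, were detected in 117 and 125 of the 195 relapsed members and in 533 and 596 of the 952 controls. The summed microglia list was also lower in primary members, at 183 against 271 CPM, with 4 or more of its markers in 4 members and 31 controls; its ratio of -0.57 turned to 0.014 among cells without a Ren1 or Mroh2a UMI.

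Ndrg2, Rprml and Sox9 were measured again within subsets of the primary cells. Among primary cells with no Ren1 or Mroh2a UMI, 234 members and 1002 controls, Ndrg2 had a log2 ratio of 1.11, Rprml 0.91 and Sox9 0.64. Rprml was then below 2-fold, while Ndrg2 remained above it. Among primary cells with no Mki67 or Top2a UMI, 201 members and 1005 controls, Ndrg2 stood at 1.19, Rprml at 1.40 and Sox9 at 0.80.

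Gfap lies on the minus strand of chromosome 11 (mm10, 102887336 to 102900912), where the non-coding gene Gm26668 overlaps it on the other strand; whether reads were counted by strand is not stated. Rprml lies on the same chromosome, at 103649570 to 103650579 on the plus strand, and C1ql1 lies 38352 bases from Gfap. Of the primary genes at 50 CPM or more within 1 Mb of Gfap, 5 of 10 were higher in members, with a median log2 ratio of 0.02, and of the relapsed ones 9 of 12 were, with a median of 0.08. Over all genes at that level, 45.8% (primary) and 54.0% (relapsed) were higher, with medians of -0.02 and 0.01.

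Among the autosomes, chromosome 6 stood apart. Its genes were lower in Atoh1 Gfap cells of both libraries: 20.1% of 159 primary genes and 27.2% of 180 relapsed genes at 50 CPM or more were higher in members, with median log2 ratios of -0.11 and -0.09. On the other autosomes 37.9% to 56.9% of primary and 50.5% to 61.3% of relapsed genes were higher, with medians between -0.03 and 0.04. Mitochondrial genes went the other way: 90.9% of 11 primary and 91.7% of 12 relapsed ones were higher in members, with medians of 0.07 and 0.08. The median mitochondrial share of a cell's UMIs was 3.46% in primary members and 3.24% in controls, and 3.15% and 2.98% in the relapsed library; its part in the other results was not tested. Atoh1, at 64729125 to 64731245 on the plus strand, lies on chromosome 6 and was left out of the counts that follow, as were Gfap, the 12 astrocyte genes, the G2/M list and ribosomal protein genes. The pattern was looked at after the ratios of all chromosomes had been seen.

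For each cell, the UMIs of 298 primary or 329 relapsed chromosome 6 genes were taken as a percentage of the UMIs of 5310 or 5160 autosomal genes of moderate level. This share had 2 peaks among Atoh1 cells. Of the primary Atoh1 cells with 8000 or more UMIs, in which the share is measured best, 518 lay between 5.5 and 6% and only 65 between 7 and 7.5%, with a further rise to 78 between 8 and 8.5%. Of the relapsed ones 96 lay between 5 and 5.5%, 43 between 6 and 6.5% and 1044 between 7.5 and 8%. A limit between 6.5 and 7%, set after the values were seen, parted the cells into a lower class with medians of 5.70% and 5.65% and a higher class with medians of 7.87% and 7.71%; 249 primary and 339 relapsed Atoh1 cells lay between 6.5 and 7%. The lower class held 78.1% of the primary and 11.2% of the relapsed Atoh1 cells.

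Genes along the whole chromosome took part. When every other chromosome 6 gene was used to class the cells and the rest were measured, 78 of 78 primary and 90 of 92 relapsed genes were higher in the higher class, with median log2 ratios of 0.42 and 0.29. In the first, middle and last part of the chromosome the medians were 0.41, 0.43 and 0.38 in the primary library and 0.31, 0.27 and 0.30 in the relapsed one. The medians of the other autosomes lay between -0.06 and 0.04 in the primary and 0.02 and 0.06 in the relapsed library. DNA copy number was not measured, so these are levels of RNA.

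Atoh1 Gfap cells were found more often in the lower class in both libraries. In the primary library 355 of 3142 lower-class Atoh1 cells were members (11.3%, 10.2 to 12.5) and 52 of 882 higher-class cells (5.90%, 4.43 to 7.66). Among relapsed cells 69 of 573 in the lower class were members (12.04%, 9.49 to 14.99) and 126 of 4528 in the higher class (2.78%, 2.32 to 3.304). The intervals of the lower-class shares overlap between the libraries, but at unlike median depths of 6568.5 (primary) and 8084 UMIs (relapsed). The intervals of the lower-class Gfap rates per UMI, given next, did not overlap between the libraries. The Gfap rate per 10000 UMIs in the lower and higher class was 0.725 (0.691 to 0.761) and 0.397 (0.350 to 0.448) in the primary library and 0.551 (0.492 to 0.615) and 0.195 (0.182 to 0.209) in the relapsed one. Atoh1 cells of the 2 classes also differed in G2/M level, at 8833 and 9064 CPM (primary) and 8145 and 10508 CPM (relapsed).

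Counted over the members, lower-class cells were 87.2% (83.6 to 90.3) of primary members and 76.5% (74.6 to 78.3) of their matched controls, and 35.4% (28.7 to 42.5) of relapsed members and 10.6% (8.72 to 12.7) of controls. They were 28.2%, 42.2% and 57.7% of relapsed members with 2, 3 and 4 or more Gfap UMIs, the last from 26 cells, and 84.5%, 86.4% and 92.9% of primary members. Without the cells of highest doublet score, 37.7% of relapsed members and 10.2% of controls were of the lower class. All 69 lower-class relapsed members had 4 or more granule precursor markers, with a median of 9, as had 334 of 341 matched controls of that class. Both groups had medians of 0 microglia, endothelial and oligodendrocyte markers. Of the astrocyte markers not used by the rule, the members had a median of 6 and these controls 5.

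**Figure D5:**
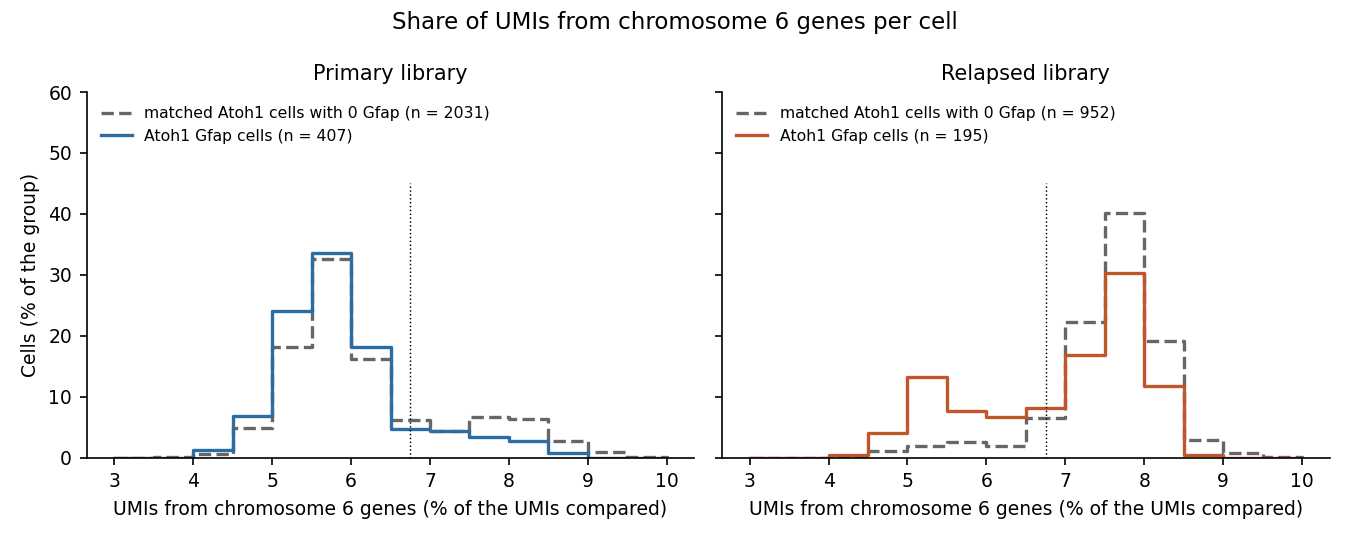
Percentage of cells (y axis) by the share of their compared UMIs that came from chromosome 6 genes (x axis, bins of 0.5), for Atoh1 Gfap cells (solid) and UMI-matched Atoh1 cells without Gfap (dashed) in each library; the dotted line marks the limit between the classes. Most primary cells lie left of the line and most relapsed cells right of it, and relapsed members have a second peak on the left that holds 35.4% of them against 10.6% of controls.

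The lower G2/M level of the members was seen within the classes, with 1 exception. With controls drawn from the same class and matched again on UMIs, the summed list had log2 ratios of -0.57 and -0.75 in the primary lower and higher class and of -0.63 in the relapsed higher class. In the relapsed lower class it stood at 0.17, from 9130 CPM in 69 members and 8096 in 341 controls; median UMIs there were 9718 and 8695, and the controls held microglial RNA at 140 CPM against 5.97 in members, whose part in the result was not tested. Sox9 in the primary library had ratios of 0.83 and 0.74 in the lower and higher class, Ndrg2 1.37 and 1.42 and Rprml 1.36 and 1.56. Relapsed Sox9 stood at 0.43 and 0.18, and Slc1a3 at 0.67 and -0.13. C1ql1 was higher in members of all 4 classes, by 0.26, 0.56, 0.50 and 0.43.

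Droplets with 2 cells were looked for with Scrublet, which marked 0 cells in either library by its own limit and was therefore not relied on. Of the 6% of cells with the highest scores, left out as an alternative, 30 were primary members (7.37% of members, against 7.08% of Atoh1 cells without Gfap) and 28 relapsed members (14.4% against 6.94%). Without them the G2/M list stood at log2 ratios of -0.63 and -0.57 and primary members were 4.98 times the number expected at the microglial rate. No relapsed member had 4 or more microglia markers.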

How the data were processed

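The deposited values were raw UMI counts in 10x matrices, 1 per library; mm10 is the build, and Seurat, STAR and Cell Ranger the tools, per the submitters' processing notes, which as read here give no roles or versions. The bulk RNA-seq files of the series were not used. The members and gene lists were chosen with earlier results of these data known. Cells were filtered, grouped, matched and summed as stated in the report with Python 3.11.15, NumPy 2.4.6, SciPy 1.17.1 and pandas 2.3.3. Log2 ratios had a prior of 1 UMI scaled to depth. Doublets were kept in the values reported, after Scrublet in Scanpy 1.11.5. Named genes were those of the rule, up to 4 per list with the largest mean ratio over both libraries, genes past 2-fold in both libraries (there were none), and a set of glial, Hedgehog and cell cycle genes; others are said to be named after their values were seen. Positions came from GENCODE M21. Ratios, matching and expected numbers were tested on simulated data. With 1 library per group there was no test, and counting intervals do not cover the spread between cells or tumours. Alternatives to the filters, controls, free RNA rates, level limits and scaling are given in the closing section.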

Additional observations from a re-analysis of the deposited data

Results flagged for a closer look

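In 4 gene lists the summed level of Atoh1 Gfap cells lay on opposite sides of their matched controls in the primary and the relapsed library, with counting intervals that leave out 0; the difference between the libraries was not tested, since each group had 1 library. The differentiating granule neuron list had log2 ratios of -0.23 (primary) and 0.20 (relapsed); within the chromosome 6 classes its relapsed ratios were -0.025 (lower) and 0.22 (higher). The inhibitory neuron list had -0.48 and 0.52, from 128 against 179 CPM and 378 against 264 CPM. These sums rested on few genes. Of its 8 genes, 5 had no UMI in primary members and 6 had none in relapsed ones. Only 1 primary and 2 relapsed genes were at 50 CPM or more. Within the chromosome 6 classes the relapsed ratios of the list were 0.09 (lower) and 0.31 (higher). The list of pan-reactive and A2 astrocyte genes had 0.20 and -0.27. The immediate early and dissociation stress list had -0.094 and 0.051.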

How the results depend on the processing

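The share of Atoh1 Gfap cells was 25.6% and 16.3% (primary and relapsed) with 1 or more Gfap UMIs, 4.97% and 1.39% with 3 or more, and 3.69% and 0.768% after thinning; the other filters moved it within its interval. The primary ratio of observed to expected cells was 3.32 at the endothelial rate, 1.02 at the rate of all filtered cells, 2.67 at the upper bound of the microglial rate, 7.91 at the rate from microglia at 0 Gfap, 6.34 without 1 microglial cell and 4.98 without high doublet scores. The relapsed ratio was 0.143, 0.295, 0.317 and 61.2 in the same order, 0.354 at the rate of 6 other cell types, and had no value without 1 microglial cell, where the expected number is 0. The relapsed number rests on 1 cell.

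The G2/M log2 ratio stayed negative in the alternatives listed here; the exception among all comparisons was 0.17 in the relapsed lower chromosome 6 class with controls of that class. In the primary library it was -0.61 with 1 nearest control, -0.54 with 10 nearest or with all controls, -0.64 with equal weight per cell, -0.61 without the tenth of members with most UMIs, -0.63 without high doublet scores, -0.78 with 3 or more Gfap UMIs, -0.31 in cells without Mki67 or Top2a, which belong to the list, and -0.49 in cells without Ren1 or Mroh2a. In the relapsed library it was -0.47 with 1 nearest control, -0.31 unmatched, -0.60 with equal weight, -0.58 without the tenth with most UMIs, -0.57 without high doublet scores, -0.53 with 3 or more Gfap UMIs, -0.52 with at most 2 astrocyte genes, -0.65 without Mki67 or Top2a, -0.56 without Ren1 or Mroh2a and -0.53 without cells of 100 or more Gh or Prl UMIs.

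Counts of genes past 2-fold depended on the level limit. Primary genes higher numbered 6 at 20 CPM, 0 at 100, 593 with 3 UMIs or more in all, 10 at 1.5-fold and 1 without Ren1 or Mroh2a; genes lower numbered 24, 6, 1264, 54 and 6, with 16 without the tenth of members with most UMIs and 25 with 3 or more Gfap UMIs. Relapsed genes higher numbered 1 with 1 nearest control, 4 with equal weight, 5 at 20 CPM, 424 with 3 UMIs in all, 2 without the tenth with most UMIs, 6 with 3 or more Gfap UMIs, 8 at 1.5-fold, 5 without Mki67 or Top2a and 4 without Ren1 or Mroh2a. Relapsed genes lower numbered 8 with 1 nearest control, 2 with 10 nearest or unmatched, 9 with equal weight, 12 at 20 and 2 at 100 CPM, 1498 with 3 UMIs in all, 12 without high doublet scores, 15 with 3 or more Gfap UMIs, 37 at 1.5-fold, 10 without Mki67 or Top2a, 7 without Ren1 or Mroh2a and 1 without cells of 100 or more Gh or Prl UMIs. The cause of these moves was not tested. Centring on the median gene shifted ratios by 0.02 and 0.01.

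Of the ratios of 1 or more in size, 4 alternative values turned sign: the primary macrophage list at 0.13 with 1 nearest control and 0.067 without the tenth of members with most UMIs, the relapsed pericyte list at 1.10 with 1 nearest control, and relapsed Apoe at -0.43 without Mki67 or Top2a. In all, 68 of 792 alternative values of 64 gene ratios and 53 of 775 of 62 list ratios changed sign. Where the reported ratio was 0.3 or more in size, 11 of 365 and 8 of 261 did: those of Ptprz1 and of the macrophage, microglia and choroid plexus lists in the primary library, and of Apoe, Hes1, Id3, Olig2, Sox2 and the macrophage and pericyte lists in the relapsed one. The 8 values of a gene among cells selected for having none of it were left out. The alternatives without Mki67, Top2a, Ren1 or Mroh2a, without high Gh or Prl, at 1.5-fold, for 3 of the free RNA rates and for chromosome 6 were chosen after seeing the data. No paired analysis was possible because each group had 1 single-cell library.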

Other observations

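Atoh1 cells with UMIs of genes of other cell types were compared with Atoh1 cells at 0 of that gene, matched on UMIs where enough were left. The genes were chosen after the Gfap values were seen. Some controls stayed shallower. At 1 or more UMIs the medians were 7229.5 against 5995 for primary Apoe. For relapsed Gh, Prl and Gfap they were 9524.5 against 7453, 9209 against 6973.5 and 9258 against 8270. For relapsed Prl at 2 or more UMIs they were 11030 against 9321. The part of this depth difference was not tested. In the primary library 1004 Atoh1 cells with 2 or more Apoe UMIs had a G2/M log2 ratio of -0.0034 and 2174 cells with 1 or more 0.20, 477 cells with 1 or more Lyz2 UMIs -0.04, and 261 and 315 cells with 1 or more C1qa and C1qb UMIs 0.09 and -0.06. Cells with 2 or more UMIs of a microglial gene were lower, at -0.29 for Lyz2 (68 cells), -0.65 for C1qa (42 cells) and -0.88 for C1qb (32 cells). The 190 cells with a UMI of Ttr, a choroid plexus gene, stood at -0.24. In the relapsed library cells with 1 or more UMIs stood at 0.21 for Gh (2530 cells), 0.26 for Prl (2924) and -0.09 for Apoe (1014), beside -0.28 for Gfap (834). With 2 or more UMIs the values were -0.05 for Gh (856 cells), 0.10 for Prl (1254) and -0.31 for Apoe (237), beside -0.49 for Gfap. The part of free RNA and of droplets with 2 cells in these values was not tested.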
